A study of Mus musculus with 21 samples.

Results

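Fmr1, Fxr1 and Fxr2 make up the Fragile X family of RNA-binding proteins, and their transcripts were followed by RNA sequencing in 21 whole mouse testes. The members were the rows of the deposited expression table with these 3 symbols, 3 of 55573 entries, each on a single row. There were 5 Mageb4 knockout testes taken 72 h after heat shock, 4 wild-type testes taken 72 h after heat shock, 6 Mageb4 knockout testes without heat and 6 wild-type testes without heat, all from male C57BL6 mice. Mageb4, the X-linked gene knocked out, belongs to the MAGE family of germline and tumour genes. The series asked how its loss affects the testis transcriptome with and without heat, under a title about repression of the stress granule protein G3BP. The knockout allele, the age of the animals and the temperature and length of the heat are not stated in the labels. The labels call the libraries biological replicates but name no animals, so p-values measure the spread between these libraries.

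Fragile X proteins bind messenger RNA through KH domains and an arginine- and glycine-rich RGG region, travel with polyribosomes and messenger ribonucleoprotein particles, and enter stress granules. FMRP, the product of Fmr1, mostly represses translation, and loss of FMR1 in people causes fragile X syndrome, of which enlarged testes are one sign. Mice without Fmr1 also have enlarged testes, which has been traced to extra Sertoli cell division. FXR1, the product of Fxr1, activates translation of stored messages in mouse spermatids, and FXR2 is the third paralog. Fmr1 is X-linked, and most X-linked genes are silenced in spermatocytes during meiosis, whereas Fxr1 and Fxr2 are autosomal.

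On mm10, in the GENCODE M21 annotation, Fmr1 (ENSMUSG00000000838.17) lies on chromosome X at 68678541 to 68717963, Fxr1 (ENSMUSG00000027680.15) on chromosome 3 at 34019943 to 34070322 and Fxr2 (ENSMUSG00000018765.5) on chromosome 11 at 69632990 to 69653297. All are protein-coding genes on the plus strand, and their longest annotated coding sequences have 631, 677 and 674 codons. The start regions are shown because these genes, close in protein sequence, differed in how far their transcripts moved with heat. Each sequence is the RefSeq promoter (build GRCm38.p6, plus strand), cut before the first annotated transcript. Capitals mark matches, on either strand, to the NRF1 site (GCGCA, then any base, then GCGC), the E-box CACGTG, the GC box GGGCGG, the heat shock element GAANNTTC or the cAMP response element TGACGTCA.
Fmr1, chrX:68678291-68678540: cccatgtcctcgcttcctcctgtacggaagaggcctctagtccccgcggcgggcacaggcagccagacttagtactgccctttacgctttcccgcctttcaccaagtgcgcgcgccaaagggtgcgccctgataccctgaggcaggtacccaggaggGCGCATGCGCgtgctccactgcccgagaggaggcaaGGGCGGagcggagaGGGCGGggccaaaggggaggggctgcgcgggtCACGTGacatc
Fxr1, chr3:34019829-34019942: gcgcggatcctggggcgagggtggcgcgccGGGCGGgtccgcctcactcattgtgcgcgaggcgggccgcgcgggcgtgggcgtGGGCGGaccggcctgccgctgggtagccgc
Fxr2, chr11:69632721-69632970: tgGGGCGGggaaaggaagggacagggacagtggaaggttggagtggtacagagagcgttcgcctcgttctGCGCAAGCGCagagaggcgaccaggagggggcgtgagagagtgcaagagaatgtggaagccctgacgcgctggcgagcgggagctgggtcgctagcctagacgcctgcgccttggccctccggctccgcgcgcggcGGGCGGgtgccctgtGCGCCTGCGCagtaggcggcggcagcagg

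Within 250 bases before the RefSeq start, Fmr1 held 1 NRF1 site, with its first base at position -93, 1 E-box, with its first base at position -11, and 2 GC boxes. Fxr2 held 2 NRF1 sites, with first bases at positions -180 and -29, and 2 GC boxes. Fxr1 held 7 GC boxes, of which 2 lie in the stretch shown, and no NRF1 site as spelled. Neither Fxr1 nor Fxr2 held the E-box. None of the 3 windows held the heat shock element or the cAMP response element as spelled. Of 32851 RefSeq promoter windows of the same length, 3.74% held the NRF1 site, 6.02% the E-box, 32.7% the GC box, 6.69% the heat shock element and 1.55% the cAMP response element. These matches describe the letters only.

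The paralogs share little exact sequence, which bears on how reads could be split between them. The longest identical coding runs are given below, all in capitals because every base is shared.
Fmr1 and Fxr1, 14 bases: GAAACAGAATCTGA
Fmr1 and Fxr2, 14 bases: GTGCGGGGCTCCAA
Fxr1 and Fxr2, 20 bases: GAAGGAGATGAAGTAGAGGT
No stretch of 50 bases was common to coding transcripts of any pair of members. Of the 50-base stretches in Fxr1 transcripts, 38 of 3960 also occur in Gm17795, a processed pseudogene listed at 0 to 0.24 TPM. Of those in Fmr1 transcripts, 23 of 4597 occur in Gm27838, a non-coding entry listed at 0 TPM. Dnajc19, a gene on the opposite strand, overlaps the end of Fxr1. The library kit keeps strand, but no source read here says whether the counting used it. Fmr1os, the antisense transcript that starts 142 bases upstream of Fmr1, stood at 0.03 to 0.14 TPM in all libraries.

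The values are TPM, transcript abundances scaled for transcript length and to the same sum in every library, so levels can be compared between genes. TPM keeps no depth, so read numbers are unknown. The targeted gene Mageb4 averaged 0.0467 ± 0.0361 TPM in unheated knockout and 1.80 ± 0.173 TPM in unheated wild type (SD, n = 6 each). After heat it averaged 0.12 ± 0.0224 TPM in the knockout (n = 5) and 8.03 ± 0.222 TPM in wild type (n = 4), so every library matched its genotype label. Wild-type heat replicate 3 stood apart in 5 epididymal markers, whose summed level was 3546 TPM there, against 11.6 to 18.0 TPM in the rest of its group. Without this library the wild-type heat effect on the log2 scale was 2.90 for Fmr1, 0.65 for Fxr2 and 0.12 for Fxr1, and that of Fxr1 was then no longer called. Replicates correlated at 0.971 to 0.994 within groups. Most genes moved with heat: 82.8% of 18977 genes tested were called in the knockout (41.3% higher and 41.5% lower) and 91.6% in wild type (47% higher and 44.6% lower), so a call by itself sets no gene apart. The share of all genes whose groups did not overlap is not given here, so a lack of overlap sets none apart either.

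**Figure D1:**
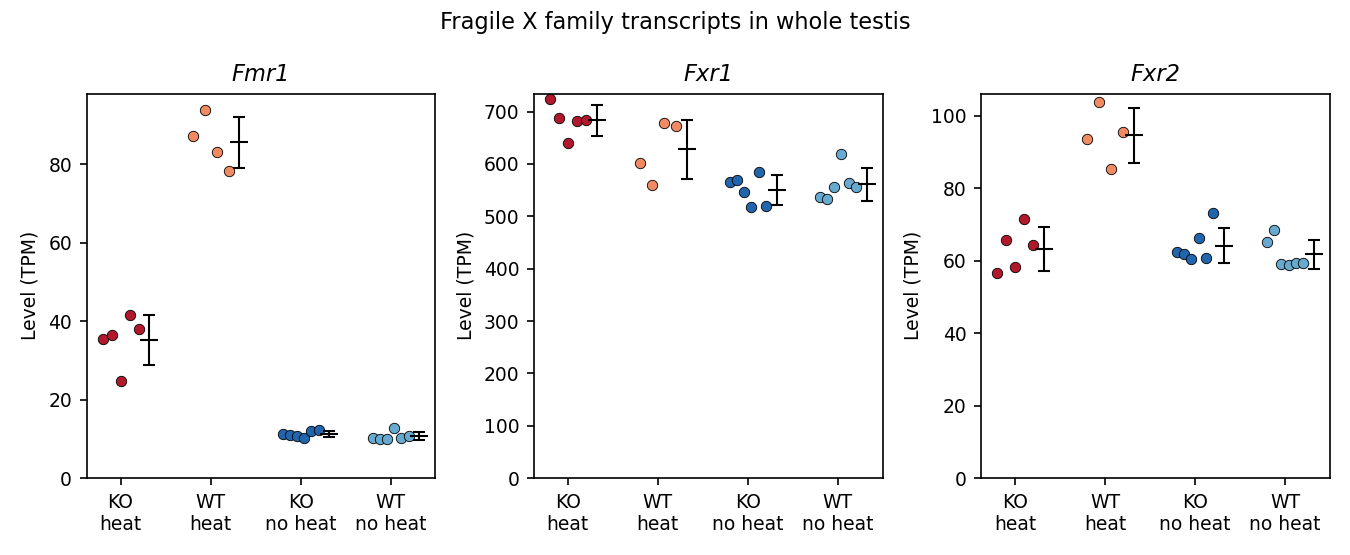
TPM of Fmr1, Fxr1 and Fxr2 (y axes from 0, a scale per gene) in each library (points) of the 4 groups, with mean and SD beside them. Heated knockout testes held 24.73 to 41.66 TPM of Fmr1, below all heated wild-type testes (78.43 to 93.87), and both heated groups were above all unheated libraries (9.94 to 12.81).

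Fmr1 was the member that moved most. Its transcript was 3.14-fold higher after heat in the knockout and 7.99-fold higher after heat in wild type. In the knockout Fmr1 stood at 35.5, 36.54, 24.73, 41.66 and 38.05 TPM after heat, and without heat at 10.14 to 12.28 TPM with a median of 11.2 TPM. Every heated knockout library lay above every unheated one, and replicate 3 was the lowest of the heated group. In wild type it stood at 87.27, 93.87, 83.06 and 78.43 TPM after heat, and at 9.94 to 12.81 TPM with a median of 10.3 TPM without heat. Here too the groups did not overlap.

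In log2(TPM + 1), a scale on which changes of weakly expressed genes appear too small, Fmr1 rose by 1.55 ± 0.10 with heat in the knockout (moderated SE; limma, Benjamini-Hochberg adjusted p = 4.98e-12). In wild type it rose by 2.89 ± 0.10 (adjusted p = 1.52e-16). Of all genes tested, 41.3% rose in the knockout and 47% rose in wild type, so the direction was common. The size was less so: the Fmr1 change lay at percentile 97.7 of all genes tested in the knockout and 97.9 in wild type. In whole-testis samples, fewer cells of a type and less RNA per cell cannot be told apart.

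Fxr2 responded to heat in wild type and showed no called change in the knockout. In wild type it stood at 93.44, 103.73, 85.26 and 95.6 TPM after heat, and at 58.84 to 68.51 TPM without heat (median 59.4 TPM). All heated wild-type libraries exceeded all unheated ones, by a ratio of means of 1.53. The rise was 0.61 ± 0.07 on the log2(TPM + 1) scale (adjusted p = 6.72e-08), at percentile 60.9 of all genes tested. In the knockout it stood at 56.51, 65.81, 58.29, 71.49 and 64.17 TPM after heat, and at 60.36 to 73.17 TPM without heat (median 62.1 TPM). These ranges overlapped, with a difference of -0.02 ± 0.07 (adjusted p = 0.783; 95% confidence interval -0.16 to 0.12). Quantile normalization put this difference at 0.26 with an adjusted p of 0.000605, so its sign and call depended on the scaling.

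Fxr1, by far the most abundant member, rose with heat by a small proportion in the knockout and by less in wild type, where the call was not stable. In the knockout it stood at 724.05, 686.83, 640.02, 681.69 and 683.52 TPM after heat, and at 516.97 to 585.06 TPM without heat (median 555 TPM). The groups did not overlap, the ratio of means was 1.24, and the rise was 0.31 ± 0.05 in log2 (adjusted p = 1.66e-05). That rise lay at percentile 62.6 of all genes tested. In wild type it stood at 601.59, 560.42, 677.55 and 671.56 TPM after heat, and at 533.43 to 619.44 TPM without heat (median 556 TPM). Here the groups overlapped, since only 2 of 4 heated libraries lay above the highest unheated one. The wild-type difference was 0.16 ± 0.06 (adjusted p = 0.0124), at percentile 51.8 of all genes tested. That call was lost with median-of-ratios scaling (0.017, adjusted p = 0.803), without wild-type heat replicate 3 (0.12, adjusted p = 0.0669) or 4 (0.13, adjusted p = 0.0577), and in a 2-sided exact permutation test (p = 0.0667).

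Without heat, loss of Mageb4 left no detected difference in the family. Fmr1 averaged 11.3 ± 0.818 TPM in knockout and 10.7 ± 1.07 TPM in wild type (SD, n = 6 each), a difference of 0.07 in log2 with a 95% confidence interval of -0.13 to 0.26. Fxr1 averaged 550.2 ± 28.0 TPM in knockout and 561 ± 31.1 TPM in wild type, with an interval of -0.13 to 0.08. Fxr2 averaged 64.1 ± 4.89 TPM in knockout and 61.7 ± 4.12 TPM in wild type, with an interval of -0.08 to 0.19. The adjusted p was 0.845 for Fmr1, 0.895 for Fxr1 and 0.807 for Fxr2, and 1.33% of all genes tested were called in this comparison, 1.25% higher and 0.0843% lower in the knockout.

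After heat the genotypes stood apart in Fmr1 and Fxr2. Fmr1 averaged 35.3 ± 6.35 TPM in knockout (SD, n = 5) and 85.7 ± 6.56 TPM in wild type (n = 4), 2.43-fold lower in the knockout, with no overlap. The difference was -1.27 ± 0.11 in log2 (adjusted p = 1.18e-09), at percentile 2.01 of all genes tested. Fxr2 averaged 63.3 ± 6.03 TPM in knockout and 94.5 ± 7.59 TPM in wild type, 1.49-fold lower in the knockout, again with no overlap (-0.57 ± 0.08, adjusted p = 5.49e-07). The Fxr2 difference lay at percentile 28.8 of all genes tested. In this comparison 83.5% of genes tested were called, 34.4% higher and 49% lower in the knockout, and the median over all genes was -0.20, so the direction of both was the common one.

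Fxr1 averaged 683 ± 29.8 TPM in heated knockout (n = 5) and 628 ± 56.6 TPM in heated wild type (n = 4), with 4 of 5 knockout libraries above the highest wild-type one. Its difference of 0.13 ± 0.06 did not pass (adjusted p = 0.0569) and was -0.07 with quantile normalization (adjusted p = 0.271). It did pass with median-of-ratios scaling (0.20, adjusted p = 0.0102) and without any one of knockout heat replicate 3, wild-type heat replicate 3 or 4, or wild-type control replicate 4. The comparison of genotypes after heat shares its libraries with the heat effects above.

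The heat effects themselves were compared between genotypes with an interaction term. The knockout effect minus the wild-type effect was -1.34 ± 0.14 for Fmr1 (adjusted p = 5.09e-08) and -0.63 ± 0.10 for Fxr2 (adjusted p = 8.23e-06). It was 0.15 ± 0.08 for Fxr1 (adjusted p = 0.0796; 95% confidence interval -0.01 to 0.32), and -0.06 with quantile normalization (adjusted p = 0.465). The median over all genes was -0.23, and 80.7% of genes tested were called, 33.2% with a higher and 47.6% with a lower effect in the knockout. Among all genes tested the difference lay at percentile 3.57 for Fmr1, 31.3 for Fxr2 and 62.5 for Fxr1.

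**Figure D2:**
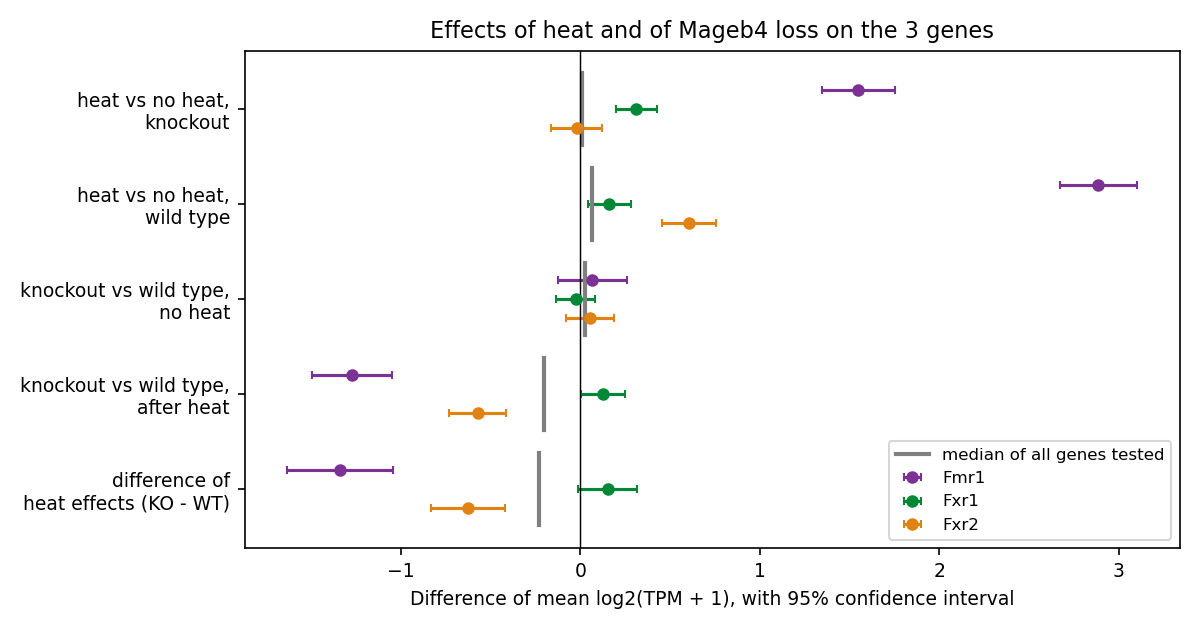
Differences of mean log2(TPM + 1) with 95% confidence intervals (x axis) for the 3 genes in 5 comparisons (y axis), with the median of all genes tested in grey. Fmr1 lies far from the median in both heat comparisons (1.55 in knockout and 2.89 in wild type), whereas all 3 genes span 0 in the unheated comparison.

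The order of levels was the same in all 21 libraries, Fxr1 above Fxr2 above Fmr1, but the distances between them changed. Fmr1 made up 4.50% ± 0.684 of the summed TPM of the 3 genes in heated knockout, 10.7% ± 1.40 in heated wild type, 1.80% ± 0.123 in unheated knockout and 1.69% ± 0.0918 in unheated wild type (SD, n = 5, 4, 6 and 6). Such ratios within a library do not depend on scaling between libraries. Fxr1 made up 87.4% ± 1.22 in heated knockout, 77.6% ± 2.80 in heated wild type, 87.9% ± 1.19 in unheated knockout and 88.5% ± 0.920 in unheated wild type. The summed TPM itself was 723 to 816 in heated knockout, 758 to 846 in heated wild type, 593 to 658 in unheated knockout and 612 to 691 in unheated wild type.

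Fmr1 and Fxr2 came close to equal levels in heated wild type. The ratio of Fmr1 to Fxr2 was 0.424 to 0.628 in heated knockout, 0.820 to 0.974 in heated wild type, 0.153 to 0.199 in unheated knockout and 0.145 to 0.218 in unheated wild type. The heated and unheated ranges did not overlap in either genotype, nor did those of the 2 heated groups. The ratio of Fxr1 to Fxr2 went in opposite directions by genotype. It averaged 10.9 ± 1.20 in heated knockout and 8.64 ± 0.972 in unheated knockout, while it averaged 6.70 ± 1.07 in heated wild type and 9.14 ± 0.982 in unheated wild type, with slight overlap of heated and unheated libraries in each genotype. As scores over members, these ratios were not tested.

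**Figure D3:**
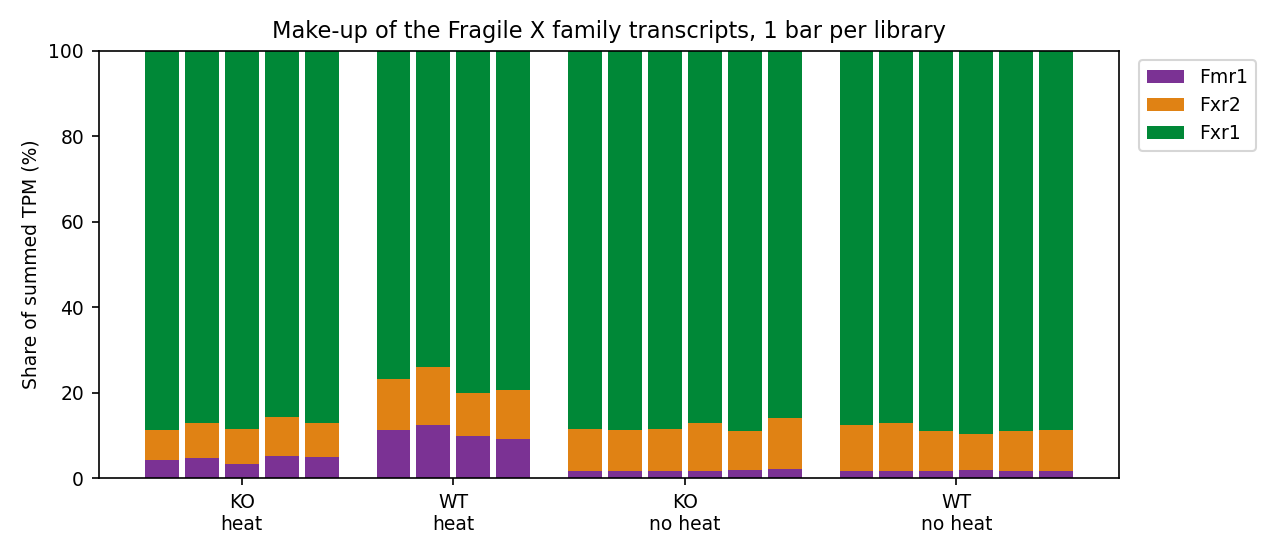
Share of each gene in the summed TPM of Fmr1, Fxr2 and Fxr1 (y axis, percent), with 1 bar per library grouped by condition. The Fmr1 share averaged 4.50% in heated knockout, 10.7% in heated wild type and under 2% in both unheated groups.

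Marker transcripts of the testis cell types moved with heat as well, and their values stand here beside those of the family. Of all genes tested, 41.3% rose and 41.5% fell in the knockout, and 47% rose and 44.6% fell in wild type. All 12 Sertoli cell markers rose in both genotypes. Their summed level was 5501 to 7761 TPM in heated knockout, 12014 to 14572 TPM in heated wild type, 1927 to 2537 TPM in unheated knockout and 1506 to 1735 TPM in unheated wild type. The ratio of mean sums, heat over no heat, was 3.19 in the knockout and 8.22 in wild type, beside 3.14 and 7.99 for Fmr1. Clu, a secreted chaperone, and Cst9, a cystatin, were the most abundant of the list, with Clu at 6977 TPM in heated and 805 TPM in unheated wild type.

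Per 1000 TPM of the Sertoli list, Fmr1 stood at 3.87 to 6.83 TPM in heated knockout, 6.44 to 6.57 TPM in heated wild type, 4.84 to 6.21 TPM in unheated knockout and 6.26 to 8.15 TPM in unheated wild type. The heated and unheated ranges overlapped on this scale in both genotypes, whereas the unheated knockout range lay below the unheated wild-type range. Only the Sertoli list was used as a scale in this way, and its sum is weighted to Clu. Without heat the Sertoli sum was 1.29-fold higher in the knockout than in wild type, with 5 of 12 markers called higher, whereas the Fmr1 ratio was 1.05. No Sertoli marker was at 0. The part of the cell mix in the Fmr1 change was not tested.

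Other somatic lists rose with heat too, by ratios of summed means of 2.90 in the knockout and 4.56 in wild type for 7 Leydig cell markers, 2.71 and 6.25 for 10 leukocyte markers, 2.52 and 5.11 for 5 endothelial markers, and 2.18 and 4.18 for 5 peritubular myoid markers. Every gene of these 4 lists rose in both genotypes. Spermatocyte markers fell in 8 of 10 cases in each genotype and rose in 1 case in the knockout and 2 in wild type, with summed means 0.469 and 0.163 times those without heat. Ldhc alone averaged 4504 of the 6158 TPM of that list in unheated wild type. Round spermatid markers fell in 10 of 11 cases in the knockout and 11 of 11 in wild type, with sums 0.542 and 0.180 times those without heat. Elongating spermatid sums were 1.60 times the unheated level in the knockout, where 9 of 9 genes rose, and 0.753 times in wild type, where 4 rose and 3 fell.

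Spermatogonia, where Fmr1 is also expressed, gave a divided list: 10 of 13 tested markers rose and 2 fell in the knockout, and 9 rose and 2 fell in wild type. Their sum was below the unheated level in both, at 0.469 times in the knockout and 0.383 times in wild type. Dmrtb1, a regulator of the entry into meiosis, held most of the unheated sum, at 154 TPM in heated and 677 TPM in unheated knockout, and 32.4 TPM in heated and 704 TPM in unheated wild type. Without Dmrtb1, a choice made after its values were seen, the other 14 markers summed to 193 to 239 TPM in heated knockout and 256 to 301 TPM in heated wild type, against 107 to 156 TPM in unheated knockout and 104 to 121 TPM in unheated wild type. None of these lists had a marker at 0 in every library of a group. Their part in the family's changes was not tested.

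**Figure D4:**
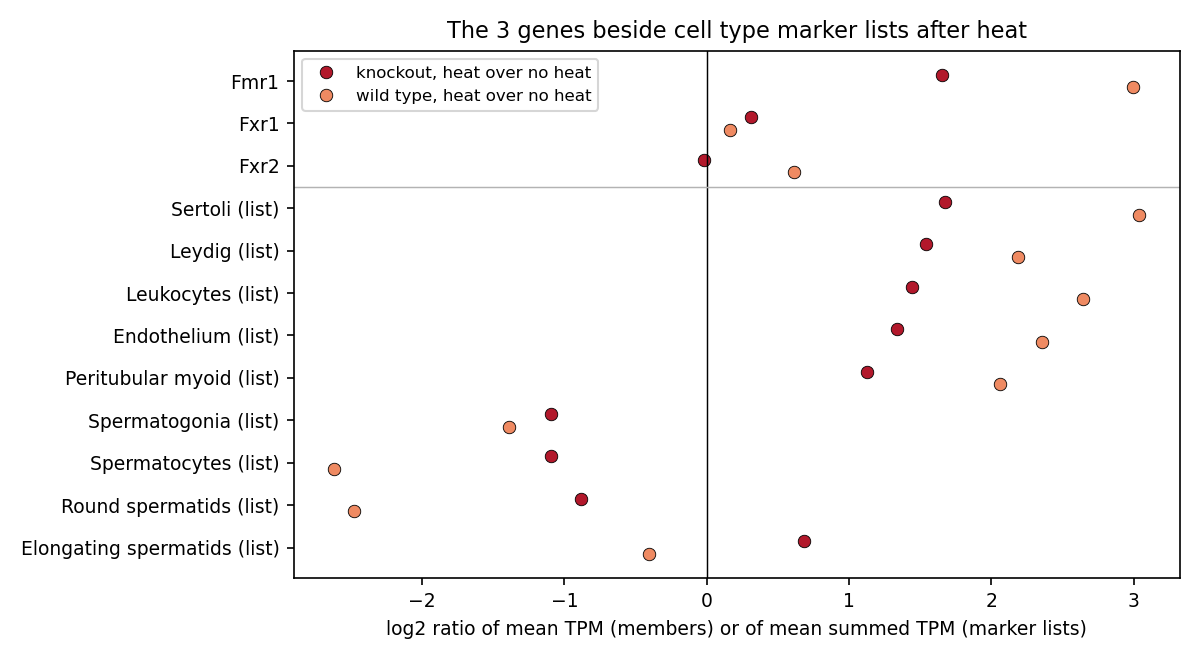
The log2 ratio of heat to no heat (x axis) for mean TPM of the 3 genes and mean summed TPM of marker lists (y axis), in knockout and wild type. The Fmr1 ratios of 3.14 and 7.99 stand beside Sertoli list ratios of 3.19 and 8.22, whereas Fxr1 and Fxr2 lie between the somatic lists and the spermatocyte and round spermatid lists.

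Fmr1 was one of many X-linked genes that rose. Of 871 X-linked genes tested, 65.0% rose and 22.0% fell with heat in the knockout (median log2 difference 0.65), and 65.9% rose and 28.7% fell in wild type (median 1.33). Over all genes tested, 41.3% rose and 41.5% fell in the knockout, and 47% rose and 44.6% fell in wild type. Among X-linked genes Fmr1 ranked 66 of 871 in the knockout and 59 of 871 in wild type, counted from the largest rise. Its nearest tested coding gene, Fmr1nb, 43.9 kb away and expressed mainly in testis, averaged 53.8 ± 5.49 TPM in heated knockout and 29.4 ± 2.34 TPM in unheated knockout (0.85 ± 0.07, adjusted p = 2.87e-10). In wild type Fmr1nb averaged 89.4 ± 5.84 TPM with heat and 27.2 ± 1.88 TPM without (1.68 ± 0.07, adjusted p = 2.81e-15). The other 5 neighbours, 103 to 2374 kb away, were mixed. 4933436I01Rik and 4930447F04Rik fell in both genotypes and Gm1140 rose in both. Gm14698 and Gm6812 changed in opposite directions in the 2 genotypes.

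The surroundings of the autosomal members differed from each other, those of Fxr1 being mixed as those of Fmr1 were. All 6 coding genes flanking Fxr2, 3.40 to 27.0 kb away, rose in both genotypes, and each by more than Fxr2. Sat2, a spermidine/spermine acetyltransferase paralog, averaged 55.4 ± 12.6 TPM with heat and 11.5 ± 1.00 TPM without heat in the knockout, and 131 ± 14.3 TPM with heat and 8.25 ± 0.602 TPM without heat in wild type. Shbg, the androgen carrier made by Sertoli cells, and Eif4a1, an RNA helicase of translation initiation, were among the others. The genes taken around Fxr1 lay 176 to 1889 kb away, and Dnajc19, which overlaps it, was left out. Of these, the ciliary gene Ccdc39 fell in both genotypes. Pex5l fell in wild type (-4.36 ± 0.26), with a knockout difference of -0.40 ± 0.25 that did not pass. Atp11b, Dcun1d1, Mccc1 and Ttc14 rose in both.

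**Figure D5:**
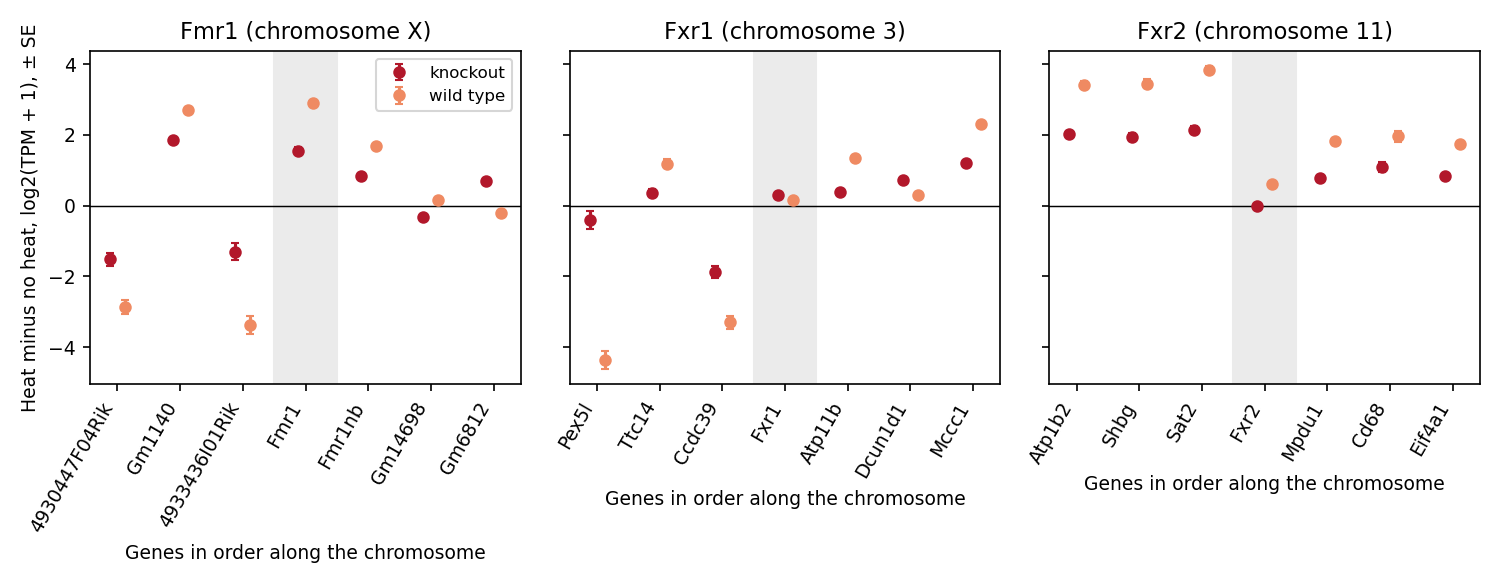
Heat minus no heat in log2(TPM + 1) with SE (y axis) in knockout and wild type, for each member (shaded) and its neighbours (x axis). Neighbours are the 3 nearest tested protein-coding genes on either side that do not overlap the member, in chromosome order. They lie 3.40 to 2374 kb away. All 6 genes around Fxr2 lie above it, while the genes around Fmr1 and Fxr1 lie on both sides of 0.

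Genes with the most similar profile were found by the root mean square difference in log2(TPM + 1) over the 21 libraries, each gene centred on its own mean, among 10775 other genes. For Fmr1, whose own values spread by 1.15 around their mean, the closest were Pwwp3b (0.103), Scml2 (0.103), Acsl4 (0.110), Diaph2 (0.111) and Adam9 (0.112). The first 4 are X-linked, Pwwp3b by the RefSeq annotation, and Adam9 lies on chromosome 8. Scml2, a Polycomb-group gene of the male germline, averaged 53.8 TPM in heated knockout, 134 TPM in heated wild type, 18.2 TPM in unheated knockout and 18.6 TPM in unheated wild type.

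For Fxr1, with a spread of 0.149, the closest were Tma7 (0.0564), Lrrc8b (0.0621), Pgk2 (0.0669), BB014433 (0.0681) and Ghitm (0.0736). Pgk2, the germ-cell phosphoglycerate kinase, averaged 1413 TPM in heated knockout, 1313 TPM in heated wild type, 1032 TPM in unheated knockout and 1106 TPM in unheated wild type. For Fxr2, with a spread of 0.249, the closest were Pank4 (0.0581), Atxn7l3 (0.0668), Ddx23 (0.0685), Bop1 (0.0711) and Hnrnpl (0.0763). Hnrnpl, a splicing regulator, averaged 163 TPM in heated knockout, 243 TPM in heated wild type, 170 TPM in unheated knockout and 166 TPM in unheated wild type. No member was among the closest genes of another. In likeness to Fmr1, Fxr2 ranked 4735 (0.972) and Fxr1 ranked 5248 (1.06). Fxr1 and Fxr2 differed by 0.278, with Fxr2 ranked 1626 in likeness to Fxr1 and Fxr1 ranked 2411 in likeness to Fxr2. That is less than their differences from Fmr1, but more than the spread of either gene (0.149 and 0.249). The measure also counts how far genes moved. A small difference between genes that changed little therefore need not mean a shared pattern.

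Protein partners of FMRP mostly moved with heat, as most genes did. The shares over all genes were 41.3% higher and 41.5% lower in the knockout, and 47% and 44.6% in wild type. Of 16 partner genes, 6 rose and 5 fell in the knockout (median log2 difference 0.12; 0.01 over all genes), and 11 rose and 4 fell in wild type (median 0.89; 0.06 over all genes). Cyfip1, which links FMRP to the cap-binding protein eIF4E and to actin regulation, averaged 23.1 ± 3.79 TPM in heated and 7.29 ± 0.743 TPM in unheated knockout, and 47.3 ± 5.18 TPM in heated and 6.00 ± 0.577 TPM in unheated wild type. These are ratios of 3.17 and 7.89, beside 3.14 and 7.99 for Fmr1 and 3.19 and 8.22 for the Sertoli marker sum. Per 1000 TPM of the Sertoli list, Cyfip1 averaged 3.53 TPM in heated and 3.54 TPM in unheated knockout. In wild type it averaged 3.58 TPM with heat and 3.74 TPM without. Cyfip1 was named as the partner with the strongest wild-type rise by moderated t, and the part of the cell mix was not tested. Ncl, the nucleolar protein nucleolin, rose 2.03-fold in the knockout and 3.78-fold in wild type. Ybx1, a Y-box protein that packages messages, averaged 586 ± 46.8 TPM in heated and 1055 ± 11.0 TPM in unheated knockout, and 272 ± 23.8 TPM in heated and 1087 ± 24.0 TPM in unheated wild type. Tdrd3, a Tudor protein that joins topoisomerase 3-beta to FMRP, fell to 0.649 and 0.522 times its unheated level. After heat 13 of the 16 were lower in the knockout than in wild type and 2 were higher, where 49% of all genes tested were lower and 34.4% higher. Without heat limma called none of them, and 1.33% of all genes tested.

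In the G3BP complex of stress granules, to which FMRP can be recruited, 3 of 5 genes rose and 2 fell in the knockout, where 41.3% of all genes tested rose and 41.5% fell. In wild type 3 rose and 1 fell, where 47% of all genes rose and 44.6% fell. G3bp2 rose 1.63-fold in the knockout and 3.36-fold in wild type, and Usp10, a G3BP-bound deubiquitinase, 1.65-fold and 3.18-fold. Ubap2l, a protein that promotes stress granule assembly, fell to 0.771 times in the knockout and 0.901 times in wild type, where its call (adjusted p = 0.0381) was lost without wild-type heat replicate 3. All 5 were lower in the heated knockout than in heated wild type, as were 49% of all genes tested.

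Genes of cap-dependent translation moved in both directions, with paralogs together in some sets and apart in others. Of 13, 9 rose and 3 fell in the knockout (median 0.48), and 10 rose and 3 fell in wild type (median 0.71). For all genes tested the shares were 41.3% higher and 41.5% lower in the knockout, and 47% and 44.6% in wild type. Eif4a1 rose 1.78-fold in the knockout and 3.37-fold in wild type, and Pabpc4, a poly(A)-binding protein, 2.55-fold and 6.04-fold. Pabpc1, the main poly(A)-binding protein, fell to 0.412 and 0.306 times its unheated level. Eif4g3, the scaffold with which FXR1 works in mouse spermatids, averaged 87.2 ± 8.83 TPM in heated and 177 ± 4.99 TPM in unheated knockout, and 79.9 ± 7.50 TPM in heated and 181 ± 7.15 TPM in unheated wild type. It fell in both genotypes (-1.02 ± 0.06, adjusted p = 2.13e-12, and -1.17 ± 0.06, adjusted p = 1.24e-13), whereas Fxr1 itself rose in the knockout. No difference between the heated genotypes was called for Eif4g3 (adjusted p = 0.094).

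The WAVE complex and its regulators are the actin arm downstream of CYFIP1. Of 10 genes, 9 rose and 0 fell in the knockout, and 8 rose and 2 fell in wild type (medians 0.74 and 1.59). Among all genes tested, 41.3% rose and 41.5% fell in the knockout, and 47% rose and 44.6% fell in wild type. Rac1, the GTPase that activates the complex, rose 2.53-fold and 5.46-fold, and Nckap1 2.38-fold and 5.63-fold. Wasf2 went in opposite directions, rising 1.38-fold in the knockout (adjusted p = 2.74e-06) and falling to 0.583 times in wild type (adjusted p = 1.53e-09). Nckap1l fell to 0.674 times in wild type and stood at 0.917 times in the knockout, which did not pass (adjusted p = 0.0819).

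Of 11 transcripts known as FMRP targets, mostly from brain, 7 were expressed enough to test. After heat 4 were higher and 2 lower in each genotype. Among all genes tested, 41.3% were higher and 41.5% lower in the knockout, and 47% and 44.6% in wild type. Ppp2ca, a phosphatase subunit, rose 2.32-fold in the knockout and 4.67-fold in wild type, and the superoxide dismutase gene Sod1 1.94-fold and 2.50-fold. Arc, an activity-regulated gene of neurons, averaged 9.12 ± 3.77 TPM in heated and 108 ± 5.54 TPM in unheated knockout, and 1.99 ± 1.44 TPM in heated and 116 ± 10.9 TPM in unheated wild type. Shank1, a scaffold of synapses, was low throughout and fell in both genotypes. Protein levels, on which FMRP acts, were not measured.

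Other KH-domain genes moved in both directions. Of 24 tested, 6 rose and 9 fell in the knockout (median -0.05), where 41.3% of all genes tested rose and 41.5% fell. In wild type 11 rose and 11 fell (median 0.06), near the 47% and 44.6% of all genes. Bicc1 rose 1.93-fold in the knockout and 4.04-fold in wild type, and Fubp3 1.87-fold and 3.60-fold. Pcbp3 averaged 42.4 ± 5.58 TPM in heated and 197 ± 8.95 TPM in unheated knockout, and 20.6 ± 4.41 TPM in heated and 198 ± 8.15 TPM in unheated wild type. Khdrbs3 fell to 0.379 and 0.188 times its unheated level. Without heat, 0 genes of the 6 lists were called between genotypes by limma; 1.33% of all genes were.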

How the data were processed

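The deposited table holds TPM values computed by the authors, with 1 column per library and the same sum in each, per the file headers and values. STAR and mm10 are named in the submitters' processing notes, and the labels' protocols give Trizol extraction, a stranded TruSeq mRNA kit and Illumina sequencing. No source read here gives the annotation, quantifier or depth. Groups came from the sample titles.

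The 18977 genes averaging 1 TPM or more were kept and put on a log2(TPM + 1) scale. One limma model (version 3.58.1, R 4.3.3; empirical Bayes with a mean-variance trend) held the means of the 4 groups. Benjamini-Hochberg adjustment covered all kept genes within each of 5 comparisons, and calls were made at an adjusted p under 0.05. The fit was also run on simulated data with independent noise, in which a small set of genes was shifted in the heated knockout group only. Most genes moved with heat in the real data, so that run does not cover their setting. Fold changes are ratios of mean TPM. Ratios between members and marker sums got no test. Sequences came from RefSeq (GRCm38.p6) and GENCODE M21, with promoters matched for 3 of 3 members.

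Named genes followed a rule: the members, Mageb4, the 2 strongest rises and 2 strongest falls by moderated t of each pathway list in wild-type heat, the 2 most abundant genes of each marker list, the 5 most similar genes among those averaging 5 TPM or more (predicted genes and clone names left out), and the 3 nearest coding genes on each side. Of the marker genes under this rule only Clu, Cst9, Dmrtb1 and Ldhc are named, and the rule did not set which. Coding genes that overlap a member were not counted among the nearest. The members and lists were chosen with earlier results of these data known. The labels give no batch.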

Additional observations from a re-analysis of the deposited data

Results flagged for a closer look

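Wild-type control replicate 4 held the highest Fmr1 and Fxr1 values of its group. Fmr1 stood at 12.81 TPM there, against 9.94 to 10.86 TPM in the other 5 unheated wild-type libraries. Fxr1 stood at 619.44 TPM there, against 533.43 to 563.49 TPM. Fxr2 in the same library was 58.84 TPM, the lowest of its group. Chance gives such a gap in about 1 group in 20, and 28 groups of values were examined. Without this library the wild-type heat effect stayed called for all 3 genes.

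The heat effects of Fmr1 and Fxr2 differed between genotypes in the interaction test. The knockout effect minus the wild-type effect was -1.34 in log2(TPM + 1) for Fmr1 and -0.63 for Fxr2. In the same libraries the Sertoli marker sum, heat over no heat, had ratios of 3.19 in the knockout and 8.22 in wild type, and the part of the cell mix was not tested.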

How the results depend on the processing

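All calls and directions for Fmr1 held under every alternative run, with the heat effect at 1.30 to 1.68 in the knockout and 2.53 to 2.99 in wild type over settings that keep all libraries. For Fxr2 every call held except under quantile normalization, which turned the knockout heat effect to 0.26 (adjusted p = 0.000605). That effect, -0.02 with all libraries, ranged over -0.066 to 0.018 without 1 library, above 0 without knockout control replicate 6 or knockout heat replicate 1 or 3, with no call. Fxr1 depended most on the choices. Quantile normalization turned its genotype difference after heat to -0.069 and its difference of heat effects to -0.062, and its unheated genotype difference ranged over -0.045 to 0.0018 without 1 library, above 0 without wild-type control replicate 4, with none of them called. Median-of-ratios scaling, which shifts the median wild-type heat effect over all genes by -0.12, gave Fxr1 a wild-type heat effect of 0.017, a genotype difference after heat of 0.20 and a difference of heat effects of 0.25 (adjusted p = 0.0147). In the exact permutation test the wild-type heat effect of 0.16 had p = 0.0667. Leaving out 1 library at a time put the Fxr1 wild-type heat effect at 0.12 to 0.21, the genotype difference after heat at 0.072 to 0.16 and the difference of heat effects at 0.10 to 0.19, with calls changing as named or without knockout heat replicate 3 (0.18), wild-type heat replicate 3 (0.19) or 4 (0.19) for the last. The cause was not tested. With the replicate number as a block, the Fmr1 heat effects were 1.56 in the knockout and 2.92 in wild type, and no call of the 3 genes changed. The labels do not say whether the numbers pair the libraries. Of 19 same-number pairs, 4 had residual correlations over 0.1, up to 0.314 for heated replicate 2 of knockout and wild type. Such correlations cannot exclude that some libraries were paired. Calls between unheated genotypes over all genes numbered 253, against 70 with quantile normalization and 1312 with only those groups in the fit. List genes were not counted again under either of these settings. Leaving out 1 library always moves a group mean by less than 1 SD, so that check could not test how stable the composition shares are. Of 60 list counts each, 56 held within 1.5 times with a 5 TPM filter, 57 with median-of-ratios scaling and 58 without wild-type heat replicate 3, an alternative chosen after seeing the data. Depth is unknown, so counting error is not known.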
